A study of Mus musculus with 12 samples.

Results

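The subunits of the mitochondrial respiratory chain and of ATP synthase were followed in the corneal endothelium of mice that carry the Q455K change in Col8a2. They were taken from the count table by gene name, as the protein-coding rows named Nduf followed by a, b, c, s or v, Sdha to Sdhd, Uqcr, Cyc1, Cox4 to Cox8 and Atp5, with the 13 mRNAs that mitochondrial DNA encodes. This gave 103 of the 32761 genes in the table, 90 encoded in the nucleus and 13 in the mitochondrion. By complex there were 40 nuclear and 7 mitochondrial genes of complex I, 4 nuclear genes of complex II, 9 nuclear and 1 mitochondrial of complex III, 20 nuclear and 3 mitochondrial of complex IV, and 17 nuclear and 2 mitochondrial of complex V. Ndufa4 and its relative Ndufa4l2 were counted with complex IV, where NDUFA4 is now placed.

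Complex I (NADH dehydrogenase) and complex II (succinate dehydrogenase) pass electrons to coenzyme Q, complex III passes them on to cytochrome c, and complex IV (cytochrome c oxidase) passes them to oxygen. Complexes I, III and IV pump protons out of the mitochondrial matrix, and complex V (ATP synthase) lets them back in to make ATP. The corneal endothelium, a single sheet of cells on the inner face of the cornea, is rich in mitochondria and spends ATP on the sodium pump that keeps the cornea dehydrated and clear.

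RNA had been sequenced from the corneal endothelium of homozygous Col8a2 Q455K mutants and of wild-type mice, in 3 biological replicates each, at a late stage (8 months of age or more) and at an early stage (2 months or less). Col8a2 encodes a chain of collagen VIII, a component of the basement membrane under this layer, and the mutant is a model of Fuchs endothelial corneal dystrophy in which every cell carries the change. The headers of the authors' tables call the wild-type controls c57, and the strain of the mutants is not given in the sources used. The number of animals behind each library is not stated. Late libraries were batch 2 and early libraries batch 1, so stage and batch cannot be told apart.

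Total counts ran from 19722598 to 39431676 per library. The low-count filter left 17965 genes to test, among them 101 members; Cox7b2 and Cox8c, isoforms named for other tissues, did not pass. The 12 markers of corneal endothelium were all present and summed to between 7306 and 15590 CPM in a library (counts scaled by TMM to a common library size), beside 18970 to 32700 CPM for 10 genes of the stromal keratocytes. Of these 10, Kera and Lum averaged 70.8 and 245 CPM in early mutants and 13.1 and 52.4 CPM in early wild type. Most of the keratocyte sum thus came from other genes of that list. Calls and adjusted p values below are those of edgeR's fit of all 12 libraries, unless another tool or a left-out library is named. Late wild-type replicate 1 stood apart from the other late wild-type libraries, and its place is given with the results that rest on it.

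Promoter windows of 300 bases, from 250 before to 50 after a gene's start, were available in RefSeq (build GRCm38.p6, whereas the counts rest on GRCm39) for 71 of the 90 nuclear members. They are shown for the genes of the main late differences, Ndufs5 and Atp5k, and for a pair of isoforms, the common Cox8a and the muscle form Cox8b. For Cox8b all early mutants lay above all early wild types, without a call in edgeR with the count filter and all 12 libraries. Capitals mark matches, on either strand, to the palindromic motif of nuclear respiratory factor 1 with a free base at its centre, CCGGAAG (ETS factors such as GABPA), AAGGTCA (estrogen-related receptors) or AAGATGGCG (YY1), and each is read 5′ to 3′ on the gene's own strand, here minus in all 4.
Ndufs5, chr4:123718137-123718436: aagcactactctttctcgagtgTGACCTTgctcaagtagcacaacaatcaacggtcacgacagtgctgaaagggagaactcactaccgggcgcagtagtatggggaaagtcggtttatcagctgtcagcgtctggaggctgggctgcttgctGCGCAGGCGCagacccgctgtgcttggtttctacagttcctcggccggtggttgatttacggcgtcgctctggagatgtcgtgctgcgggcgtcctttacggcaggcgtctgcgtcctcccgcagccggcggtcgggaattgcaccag
Atp5k, chr5:108434350-108434649: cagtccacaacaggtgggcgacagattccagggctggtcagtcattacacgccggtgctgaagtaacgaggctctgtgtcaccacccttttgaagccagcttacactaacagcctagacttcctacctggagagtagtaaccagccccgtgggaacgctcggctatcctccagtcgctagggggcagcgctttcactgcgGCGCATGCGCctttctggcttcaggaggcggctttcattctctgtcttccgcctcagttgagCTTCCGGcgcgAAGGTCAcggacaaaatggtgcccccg
Cox8a, chr19:7217567-7217866: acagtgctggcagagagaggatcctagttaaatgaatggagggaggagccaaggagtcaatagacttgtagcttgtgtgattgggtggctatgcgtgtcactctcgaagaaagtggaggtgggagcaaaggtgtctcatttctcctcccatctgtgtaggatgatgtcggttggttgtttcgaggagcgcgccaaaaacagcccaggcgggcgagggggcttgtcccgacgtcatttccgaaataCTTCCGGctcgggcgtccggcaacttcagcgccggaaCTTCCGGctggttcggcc
Cox8b, chr7:140900397-140900696: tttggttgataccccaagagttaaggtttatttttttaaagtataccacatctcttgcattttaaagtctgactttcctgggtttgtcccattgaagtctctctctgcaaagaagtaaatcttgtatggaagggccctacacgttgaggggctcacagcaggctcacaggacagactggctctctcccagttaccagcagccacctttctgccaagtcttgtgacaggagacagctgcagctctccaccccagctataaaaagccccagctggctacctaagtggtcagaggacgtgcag
The window of Cox8b held none of the 4 motifs, and those of the other 3 genes held at least 1 each. The motif of nuclear respiratory factor 1 lay in 23.7% of 76 member windows and in 4.60% of all 32851 windows of the reference. CCGGAAG lay in 22.4% and 8.86%, AAGGTCA in 10.5% and 4.72%, and AAGATGGCG in 9.21% and 1.40%. In the 250 bases before the start alone, the share of member windows and of all windows was 18.4% and 3.74% for nuclear respiratory factor 1 and 15.8% and 6.91% for CCGGAAG. It was 6.58% and 4.08% for AAGGTCA and 1.32% and 0.61% for AAGATGGCG. The median GC content was 57.5% in member windows and 52.7% in all windows, and its part in these shares was not tested. A match in these windows is a match of letters and was not tied to binding.

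Per unit of length, mitochondrially encoded mRNAs held the highest levels. CYTB, the cytochrome b of complex III, averaged 9822 FPKM over the 12 libraries, ND1 of complex I 4414 FPKM and COX1, the catalytic core of complex IV, 2577 FPKM. Among nuclear members the highest were Uqcr11, a small subunit of complex III, at 2142 FPKM, Cox6a1 at 1582 FPKM and Cox4i1 at 1458 FPKM, both of complex IV. In complex I Ndufb9 and Ndufa2, both accessory subunits, led the nuclear genes with 1164 and 1109 FPKM, and in complex V Atp5j2, a subunit of the membrane part, led with 1063 FPKM. Complex II ran from 440.3 FPKM for Sdhb, its iron-sulfur subunit, to 68.8 FPKM for Sdha, its flavoprotein. The lowest tested nuclear members were Cox6a2 at 1.33 FPKM, Cox7a1 at 2.35 FPKM, both forms typical of striated muscle, and Ndufb4c, a copy of Ndufb4, at 5.07 FPKM.

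The 13 mitochondrial mRNAs did not stand at one level. ND4L and ND4 are read from a shared transcript, yet ND4L averaged 30.4 FPKM and ND4 1878 FPKM; likewise ATP8 averaged 21.6 FPKM and ATP6, which overlaps it, 145 FPKM. COX2, COX3 and ND3 were also low, at 104, 97.3 and 25.8 FPKM. Of the 13, COX2, COX3, ATP6, ND3, ND4 and ND4L match a pseudogene transcript of the GENCODE reference at 99% identity or more over at least 40% of their length, and the other 7 do not pass that rule. The matches cover nearly the whole of each except ND4 (63.6%), so reads of the other 5 could be shared with the copies, and their levels are uncertain. The part of read sharing in the low levels was not tested.

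At the late stage the members were lower in mutants as a group. The median log2 fold change was -0.64 over the 88 nuclear members tested and -0.69 over the 13 mitochondrial ones, against 0.00 over all 17965 genes. It was below 0 for 74 nuclear and 12 mitochondrial members, 85.1% of the 101, where 49.9% of all genes were below 0. An unadjusted p under 0.05 was reached by 59 members, all lower in mutants, against 15.2% of all genes in that direction. After Benjamini-Hochberg adjustment over all genes 2 members passed 0.05 in edgeR's quasi-likelihood test, Ndufs5 and Atp5k, both lower, where 5.47% of all genes were called. Leaving out late wild-type replicate 1 gave 50 late calls, where calls over all genes rose too, to 9.33% lower and 11.0% higher. Leaving out any 1 late mutant or late wild-type replicate 2 gave 0. DESeq2's Wald test called 20 members late, where it called 13.1% of all genes, and limma-voom with sample weights 32, where it called 9.71%. The limma-voom weight of late wild-type replicate 1 was the lowest of the 12 libraries, 0.272, where the others ran from 0.588 to 2.79. The limma-voom calls therefore rested least on that library. With protein-coding genes alone edgeR called 7, and the share of all genes in that fit is not given here. With the late libraries alone edgeR called 0. In bulk tissue fewer cells of a type and less RNA per cell cannot be told apart.

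At the early stage the medians lay near 0. The median log2 fold change was -0.05 over the nuclear and 0.03 over the mitochondrial members, against -0.11 over all genes. An unadjusted p under 0.05 was reached by 6 members that were higher, where 5.37% of all genes were, and by 1 that was lower, where 3.4% were. After adjustment 1 member passed, Cox6a2, which was higher, where 0.59% of all genes were called. All 3 mutants lay above all 3 wild types for 12 members, where 10.1% of all genes did so, and below them for 2, where 11.8% did.

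**Figure D1:**
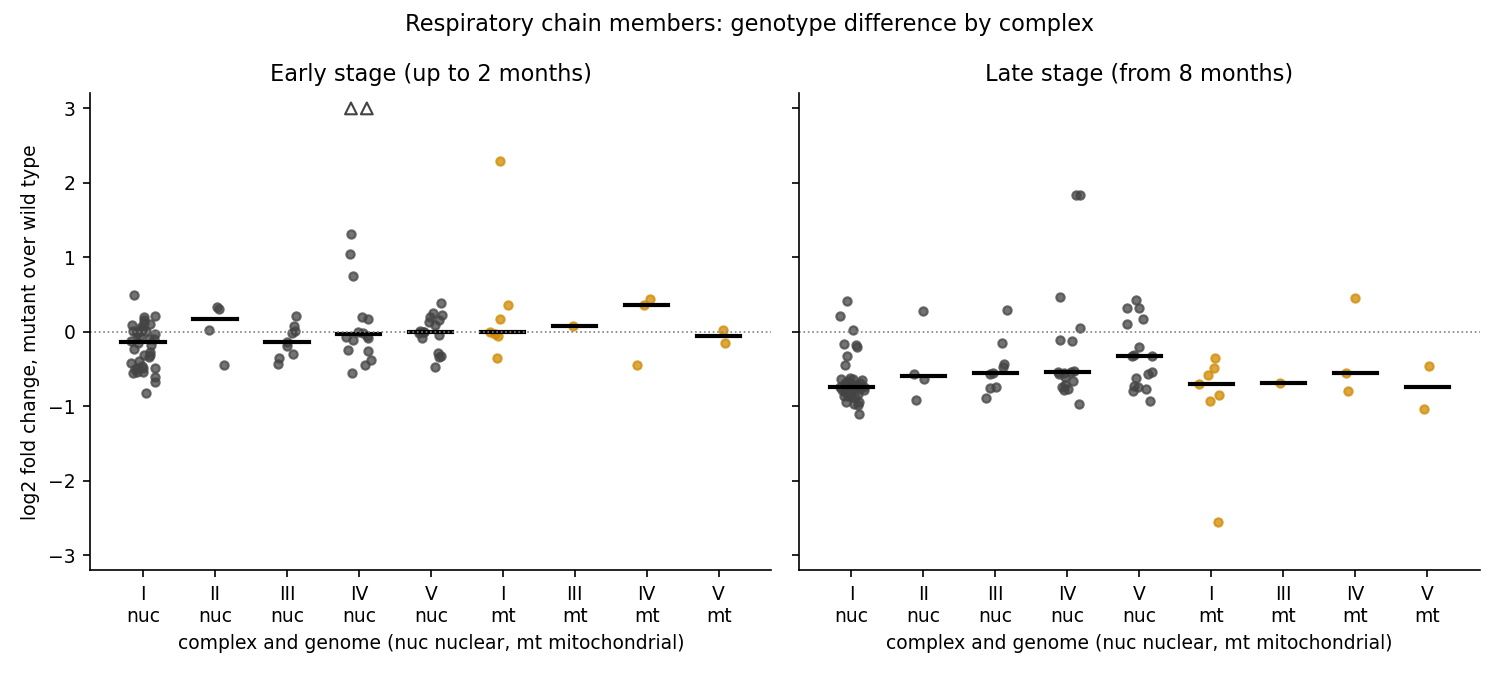
Log2 fold change of mutant over wild type for the 101 tested members, by complex and genome, early (left) and late (right); each point is a gene, black lines are medians and open triangles mark Cox6a2 and Cox8b, which lie above the axis. Late medians lie between -0.33 (complex V, nuclear) and -0.74, and early medians lie near 0 in most classes.

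By complex, with all libraries, the late median of the nuclear members was lowest in complex I and nearest to 0 in complex V. Without late wild-type replicate 3 complex II was lowest, at -0.59 against -0.56 in complex I, and without late wild-type replicate 2 complex IV was nearest to 0, at -0.37 against -0.40 in complex V. Of 40 nuclear genes of complex I, 37 were below 0 with a median of -0.74, and the 7 mitochondrial ones had a median of -0.70. The medians of the nuclear members were -0.60 in complex II, -0.55 in complex III, -0.54 in complex IV and -0.33 in complex V, and -0.74 over the 2 mitochondrial ones of complex V. The accessory subunits of complex I, which surround its catalytic core, had a median of -0.76 over 33 genes, and its 7 nuclear core subunits a median of -0.63. No test between complexes was made.

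The share of all counts that came from the 90 nuclear members gives the levels before any scaling between libraries. It was 2.50, 2.85 and 2.76% in late mutants, against 3.05, 3.47 and 3.98% in late wild type, with no overlap. In early mutants it was 3.11, 2.68 and 2.95%, against 3.54, 3.23 and 3.53% in early wild type, again with no overlap, so the early groups differed in raw share although the median fold change after TMM scaling was near 0. TMM factors, which scale library sizes, lay between 0.838 (early wild type, replicate 1) and 1.21 (late mutant, replicate 2). The 13 mitochondrial mRNAs gave 1.92, 2.19 and 2.64% of counts in late mutants, against 2.87, 2.90 and 2.64% in late wild type, where mutant replicate 3 reached the lowest wild type. They gave 2.05, 2.78 and 2.57% in early mutants, against 2.75, 2.49 and 2.68% in early wild type, with full overlap.

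Late wild-type libraries were more spread than late mutants over the nuclear members. At the late stage the median SD of log2 CPM between replicates was 0.16 over nuclear members in mutants and 0.51 in wild type, against 0.33 and 0.51 over all tested genes. Late wild-type replicate 1 was the lowest of its group for 66 of 88 nuclear members and the highest for 16. The median deviation of nuclear members from their own means over the 12 libraries was -0.30, -0.43 and -0.24 in late mutants, against -0.30, 0.48 and 0.61 in late wild-type replicates 1, 2 and 3. All 3 late mutants lay below all 3 late wild types for 22 of the 88 nuclear members, where 10.9% of all genes did so.

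In the mitochondrial mRNAs this library stood with the other wild types. Late wild-type replicate 1 was the lowest of its group for 4 of the 13 and the highest for 6. The median deviation was -0.68, -0.42 and -0.11 in late mutants, against 0.39, 0.44 and 0.16 in late wild type. All late mutants lay below all late wild types for 8 of the 13, where 10.9% of all genes did so. At the early stage wild-type replicate 2 was the lowest of its group for 68 of 88 nuclear members and replicate 1 the highest for 75.

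**Figure D2:**
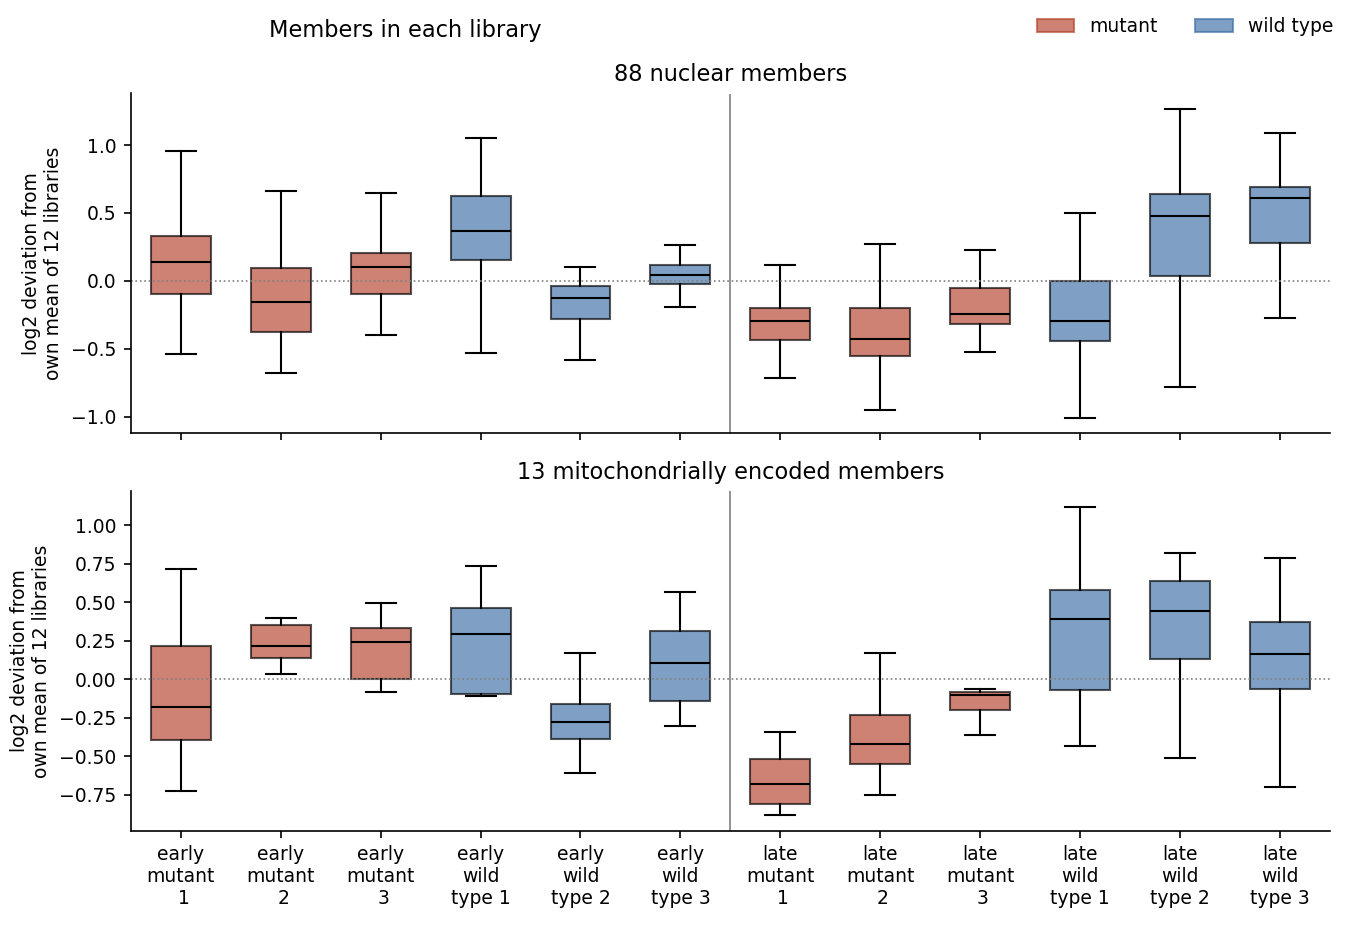
Log2 deviation of each member from its own mean over the 12 libraries, for 88 nuclear (top) and 13 mitochondrial members (bottom); boxes span the quartiles with the median, whiskers reach 1.5 times the box or the last point inside it, and points beyond are not drawn. Late wild-type replicate 1 sits with the late mutants in the upper panel (median -0.30) and with the other wild types in the lower one (0.39).

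Without late wild-type replicate 1 the late medians were -0.76 over nuclear and -0.56 over mitochondrial members, and the median of all genes moved to 0.27. In that fit 46 members were called lower and 4 higher, where 9.33% of all genes were called lower and 11.0% higher. Those called lower held 28 of 40 nuclear genes of complex I, 1 of 4 of complex II, 3 of 9 of complex III, 7 of 18 of complex IV and 6 of 17 of complex V, and 1 mitochondrial gene, ND2. The 4 called higher were Ndufs1, Cox6a1, Atp5b and Atp5d. Without late wild-type replicate 2 or 3 the nuclear median was -0.54 or -0.48, and without a late mutant it lay between -0.65 and -0.50.

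**Figure D3:**
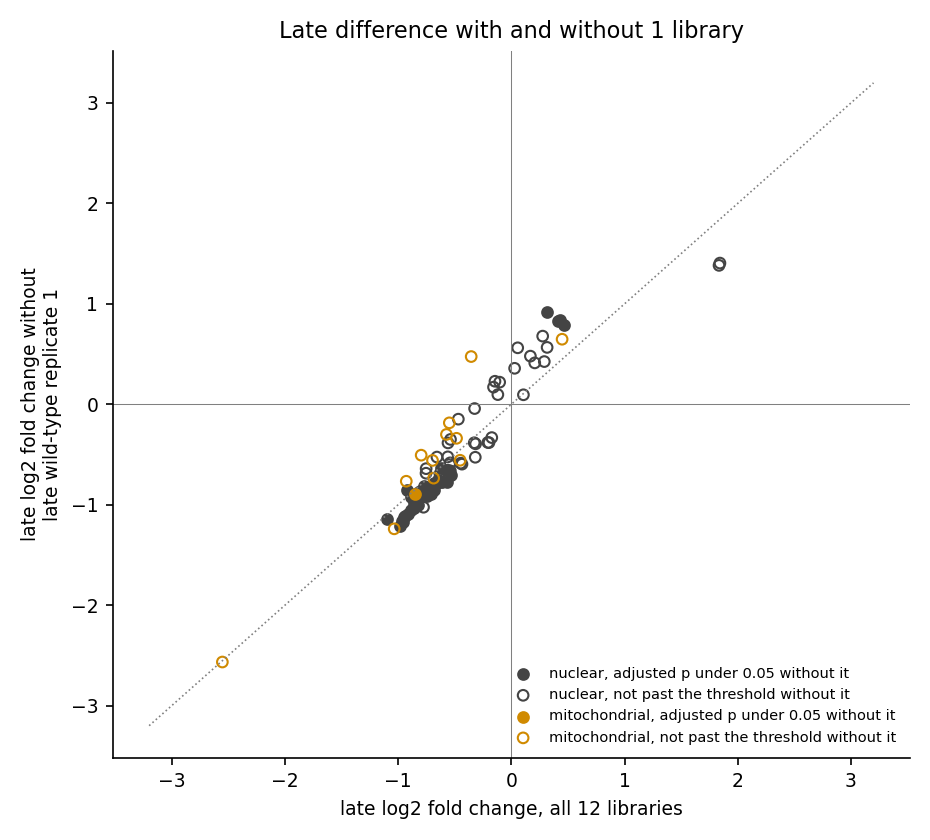
Late log2 fold change of each member with all libraries (horizontal) and without late wild-type replicate 1 (vertical), nuclear members in grey and mitochondrial ones in orange, filled where the adjusted p was under 0.05 without that library. The 46 filled points below 0 and the 4 above 0 are the members called in that fit; the dotted line marks equal values.

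In complex I, Ndufs5, an accessory subunit of the membrane arm, was lower in mutants at both stages. It was at 161, 129 and 154 CPM in late mutants, against 237, 341 and 374 CPM in late wild type. In early mutants it was at 192, 148 and 181 CPM, against 360.0, 317 and 247 CPM in early wild type. At each stage all 3 mutants lay below all 3 wild types. The late log2 fold change was -1.10 ± 0.26 (SE; edgeR, adjusted p = 0.021), a 2.15-fold lower level, and the early one -0.83 ± 0.26 (adjusted p = 0.26). Averaged over the stages it was -0.96 ± 0.18 (adjusted p = 0.0031), a call that held in all 20 alternatives. The late call was lost without any 1 late mutant or without late wild-type replicate 2 or 3, at adjusted p values from 0.069 to 0.097 and log2 fold changes from -1.16 to -0.91, and in a fit of the late libraries alone (0.060). A processed pseudogene, BC002163, matches 46.9% of the Ndufs5 transcript at 99.4% identity, so some of its reads may belong to that copy.

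The next members of complex I by late p were Ndufb2, Ndufc2 and Ndufa11, accessory subunits of the membrane arm, and Ndufs7, an iron-sulfur subunit of the core. Ndufb2 was at 219, 232 and 261 CPM in late mutants, against 298, 502 and 488 CPM in late wild type, with no overlap, a log2 fold change of -0.86 ± 0.26 (adjusted p = 0.057). Ndufc2 was at 135, 118 and 139 CPM in late mutants, against 136, 305 and 312 CPM, where replicate 1 of the wild type lay among the mutants. Its log2 fold change was -0.94 (adjusted p = 0.067), and those of Ndufa11 and Ndufs7 were -0.88 and -0.75 (adjusted p = 0.07 and 0.077). DESeq2's Wald test and limma-voom each called Ndufb2, Ndufc2, Ndufa11 and Ndufs7 late (adjusted p from 0.015 to 0.035 and from 0.027 to 0.045). The early log2 fold change was 0.01 for Ndufb2 and 0.00 for Ndufc2. The accessory subunits Ndufb8 and Ndufa12 and Ndufb4b, a further copy of Ndufb4, were named by their p averaged over stages, with log2 fold changes of -0.77, -0.78 and -0.75 (adjusted p = 0.058, 0.0502 and 0.059). Without late wild-type replicate 1 these 3 averages were -0.83, -0.85 and -0.83, and all were called (adjusted p = 0.012, 0.0083 and 0.0088). Each of the 3 was called in 7 of 20 alternatives, among them DESeq2's Wald test and limma-voom with all libraries. Without early wild-type replicate 1 the averages were -0.52, -0.59 and -0.61, and over all alternatives the highest adjusted p values were 0.16, 0.14 and 0.16.

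In complex I 3 nuclear members were above 0 late. Ndufs1, the largest subunit of the core, was at 38.5, 31.8 and 43.4 CPM in late mutants, against 38.6, 25.4 and 21.2 CPM in late wild type, a log2 fold change of 0.41 ± 0.27 (adjusted p = 0.33). Its early log2 fold change was 0.50 ± 0.27 (adjusted p = 0.59). Ndufv3 and Ndufa2, both accessory subunits, had late log2 fold changes of 0.21 and 0.03.

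In complex II 3 of 4 subunits were below 0 late. Sdhb was at 369.6, 305 and 377 CPM in late mutants, against 351, 830.4 and 802 CPM in late wild type (log2 fold change -0.91 ± 0.35, adjusted p = 0.1). Sdhc, a membrane anchor, was at 125, 111 and 107 CPM, against 147, 194 and 166 CPM, without overlap (log2 fold change -0.56 ± 0.23, adjusted p = 0.13). Sdha, which holds the flavin that oxidises succinate, was at 204, 186 and 225 CPM in late mutants, against 227, 162 and 119 CPM, overlapping, with a log2 fold change of 0.28 ± 0.27. Sdhd, the other membrane anchor, had a late log2 fold change of -0.63 ± 0.30. None of the 4 passed the threshold at either stage, while at the late stage DESeq2's Wald test called Sdhc and limma-voom Sdhb.

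In complex III the late log2 fold changes ran from -0.88 for Uqcrc1, a core protein, to 0.29 for its partner Uqcrc2. Uqcr10, a small subunit, was at 509, 465 and 548 CPM in late mutants, against 835, 825 and 904 CPM in late wild type. These groups did not overlap, and the 3 wild types lay close together, a log2 fold change of -0.75 ± 0.26 (adjusted p = 0.083). Uqcrc1 was at 477, 347 and 416 CPM, against 409.6, 1038 and 842 CPM, where wild-type replicate 1 lay inside the mutants. Uqcrfs1, the Rieske iron-sulfur protein, and Cyc1, cytochrome c1, had late log2 fold changes of -0.55 and -0.47, and Uqcr11 one of -0.14.

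In complex IV 14 of 18 tested nuclear members were below 0 late, and 5 nuclear members, all tissue-restricted forms, lay above all wild types early, as did the mitochondrial COX2 and COX3, where 10.1% of all genes did so. Of these 7, Cox6a2 passed the threshold. Cox7c, a structural subunit, was at 200.3, 183 and 220.2 CPM in late mutants, against 188, 490.0 and 498 CPM in late wild type (log2 fold change -0.96 ± 0.33, adjusted p = 0.079). Cox4i1 was at 863, 908 and 874 CPM, against 1384, 1053 and 1402 CPM, without overlap (log2 fold change -0.54 ± 0.25, adjusted p = 0.17). Cox8a and Cox6a1, the common forms of their subunits, had late log2 fold changes of -0.10 and 0.46. Cox7a2l, a factor that joins complexes III and IV into supercomplexes, had one of -0.74 ± 0.27 (adjusted p = 0.093).

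Cox6a2, the heart and skeletal muscle form of subunit 6A, was the member called early. It was at 2.70, 1.64 and 1.33 CPM in early mutants, from 99, 60 and 43 counts, against no count in any of the 3 early wild types. Against a floor of 3 counts per wild-type library it was at least 17.7-fold higher (edgeR, adjusted p = 0.048). The call was lost without any 1 early library, at adjusted p values from 0.071 to 0.18, without late mutant replicate 2 (0.056) and in 3 further settings. In late mutants it was at 0.275, 0.922 and 2.69 CPM, against 0.0328, 0 and 1.05 CPM in late wild type (adjusted p = 0.32), and its difference averaged over the stages had an adjusted p of 0.01. At its highest it reached 0.26% of the FPKM of Cox6a1.

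Cox8b, the muscle form of subunit 8, followed the same order of groups at a higher level. It was at 29.0, 8.11 and 4.45 CPM in early mutants, against 0.337, 0.791 and 1.60 CPM in early wild type, without overlap (log2 fold change 3.89 ± 1.32, adjusted p = 0.41). In edgeR it passed early with the early libraries alone (adjusted p = 0.027) and with no filter (2.9e-15). The log2 fold change with no filter was 3.93, and the cause of the smaller p was not tested. In late mutants Cox8b was at 0.894, 9.04 and 22.1 CPM, against 0.164, 1.32 and 7.54 CPM in late wild type, with overlap (log2 fold change 1.83 ± 1.20, adjusted p = 0.34). The 13 markers of striated muscle summed to 14.3, 45.7 and 13.1 CPM in the early mutants, against 13.9, 36.9 and 30.6 CPM in early wild type, and none was called at either stage. They summed to 14.1, 55.5 and 112 CPM in the late mutants, against 3.97, 7.10 and 68.8 CPM in late wild type. Within each late genotype Cox8b was highest in the library with the highest muscle sum, and in early mutants it was highest in replicate 1, whose sum was 14.3 CPM. The part of muscle tissue in these levels was not tested.

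Cox4i2 and Ndufa4l2, isoforms known for induction under low oxygen, and Cox6b2, a form typical of testis, also lay above wild type early. Cox4i2 was at 38.8, 24.0 and 32.2 CPM in early mutants, against 14.6, 13.1 and 10.7 CPM in early wild type, without overlap (log2 fold change 1.31 ± 0.38, adjusted p = 0.2). Ndufa4l2 was at 443, 433 and 429.7 CPM, against 230.0, 112 and 288 CPM, also without overlap (log2 fold change 1.05 ± 0.45, adjusted p = 0.51). Neither passed the threshold in edgeR with the count filter. With no filter both did (adjusted p = 0.0042 for Cox4i2 and 0.040 for Ndufa4l2), and Cox4i2 also in a fit of the early libraries alone (0.045). At the late stage the order was the other way round, with overlap. Cox4i2 was at 9.94, 14.6 and 26.4 CPM in late mutants, against 26.9, 39.3 and 14.1 CPM in late wild type, and Ndufa4l2 at 141, 175 and 354 CPM, against 154, 659.8 and 331 CPM. Cox6b2 had log2 fold changes of 0.75 ± 0.30 early and 0.06 ± 0.30 late.

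Set against its common form per unit of length, the FPKM of Ndufa4l2 was 57.5 ± 7.89% of that of Ndufa4 in early mutants and 21.2 ± 8.91% in early wild type (SD, n = 3 each). In late mutants it was 29.9 ± 12.4%, and 34.9 ± 15.5% in late wild type. Cox4i2 was 2.96 ± 0.261% of Cox4i1 in early mutants and 1.15 ± 0.164% in early wild type, and Cox8b was 2.63 ± 2.00% of Cox8a in early mutants and 0.215 ± 0.148% in early wild type. Ndufa4l2 thus stood within an order of magnitude of its partner, and the other restricted forms were minor. The summed markers of smooth muscle and pericytes, cells known to hold Cox4i2 and Ndufa4l2, were 164 to 205 CPM in early mutants and 204 to 306 CPM in early wild type, with none called. Most of this was Acta2, smooth muscle actin, at 147, 182 and 175 CPM in early mutants, against 286, 259 and 179 CPM in early wild type. Of the 9 tested markers of this list, 7 were below 0 early, with a median of -0.74, against -0.11 over all genes. Among them were Notch3, Abcc9 and Cspg4 (log2 fold change -1.275, -2.73 and -2.06, adjusted p = 0.51, 0.58 and 0.58). Rgs5, a pericyte marker, lay the other way, at 1.89, 7.08 and 1.61 CPM in early mutants, against 0, 1.54 and 0.593 CPM in early wild type (log2 fold change 2.33, adjusted p = 0.60). At the late stage the sum was 237 to 279.6 CPM in mutants and 154 to 202 CPM in wild type, and Myh11 and Notch3 were called lower (log2 fold change -1.05 and -2.36, adjusted p = 0.040 and 0.021). Their part in these levels was not tested. The remaining common forms, Cox6b1, Cox7a2, Cox7b and Ndufa4, had late log2 fold changes of -0.55, -0.77, -0.61 and -0.53, and the muscle form Cox7a1 one of -0.12 ± 0.73.

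**Figure D4:**
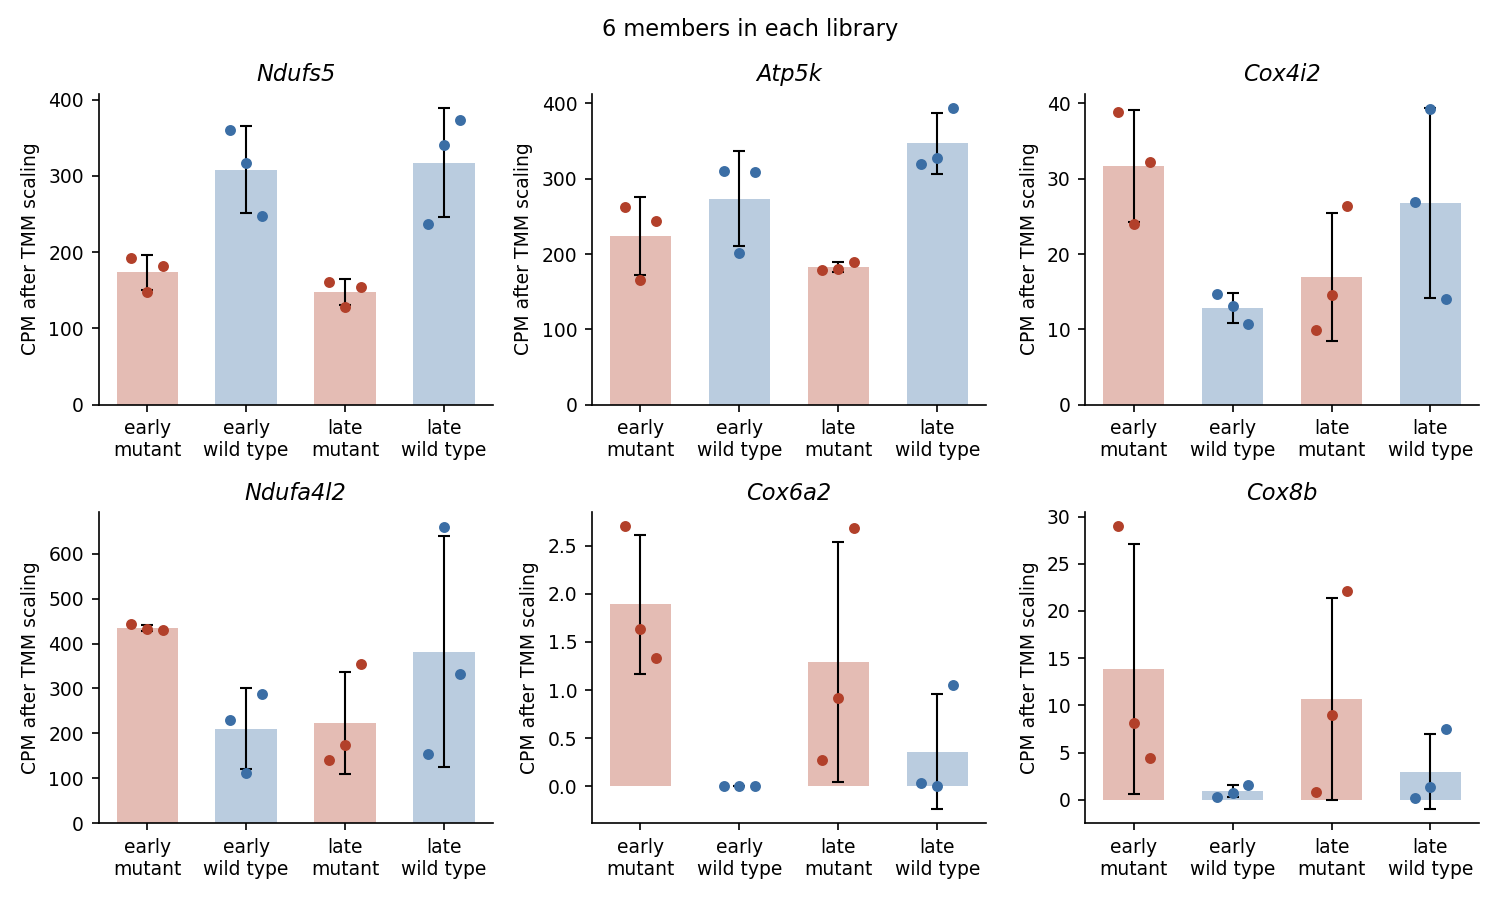
CPM after TMM scaling of 6 members in each library (points), with the group mean (bar) and SD (line), early mutant, early wild type, late mutant and late wild type. Ndufs5 is lower in mutants at both stages without overlap, Atp5k at the late stage, and the 4 tissue-restricted isoforms are higher in early mutants without overlap.

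In complex V, Atp5k, subunit e of the membrane part, which helps ATP synthase form dimers, was the second member called late. It was at 179, 179.6 and 189.9 CPM in late mutants, against 319, 328 and 393 CPM in late wild type, with no overlap. The log2 fold change was -0.92 ± 0.26 (edgeR, adjusted p = 0.043), a 1.90-fold lower level. The call was lost without early mutant replicate 1, 2 or 3, early wild-type replicate 3, late mutant replicate 1, 2 or 3, or late wild-type replicate 2 or 3, at adjusted p values from 0.054 to 0.17 and log2 fold changes from -0.96 to -0.82. It was also lost in a fit of the late libraries alone (0.094), with no filter (0.078) and in 1 further setting. Early it was at 263, 166 and 243 CPM in mutants, against 310.3, 201 and 309 CPM in wild type (log2 fold change -0.29 ± 0.26).

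In the catalytic head of ATP synthase and its central stalk most late values were above 0. Of these 5 nuclear genes 4 had a late log2 fold change above 0, namely Atp5a1 (0.17) and Atp5b (0.43), the alpha and beta subunits, and Atp5d (0.32) and Atp5e (0.32), the delta and epsilon subunits. None of these 4 passed the threshold. The gamma subunit Atp5c1 was at 257, 266 and 269 CPM in late mutants, against 321, 487 and 410.3 CPM in late wild type (log2 fold change -0.62 ± 0.23, adjusted p = 0.099), and was called by DESeq2's Wald test and limma-voom. Atp5b was at 736, 545 and 568 CPM in late mutants, against 618, 399 and 355 CPM, and wild-type replicate 1 was the high one. The 3 genes of the proton-carrying c ring, Atp5g1, Atp5g2 and Atp5g3, had late log2 fold changes of -0.20, -0.33 and -0.73, and 8 of the 9 other nuclear genes of complex V were below 0. The 14 nuclear members above 0 had a median length of 1186 bases as implied by the deposited FPKM, and the 74 below 0 a median of 756 bases.

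Among mitochondrial mRNAs 12 of 13 were below 0 late, and COX1 was above. CYTB was at 8742, 6983 and 10290 CPM in late mutants, against 10290, 17240 and 14340 CPM in late wild type, a log2 fold change of -0.69 ± 0.28 (adjusted p = 0.12). ND6, the mRNA read from the light strand, was at 246, 367 and 334 CPM in late mutants, against 629, 617 and 555 CPM, without overlap (log2 fold change -0.93 ± 0.29, adjusted p = 0.063). ND2 and ND5, membrane subunits of complex I, had log2 fold changes of -0.85 ± 0.30 and -0.70 ± 0.26 (adjusted p = 0.085 and 0.1). ND1 and ND4 were lower by less, at -0.48 and -0.57, also without overlap between genotypes. None of the 13 passed the threshold in edgeR with all libraries, and 9 reached an unadjusted p under 0.05, all lower. DESeq2's Wald test called ND2, ND4L, ND5, ND6 and COX3 late (adjusted p from 0.0051 to 0.046), edgeR on protein-coding genes alone called ND6 and COX3 (0.045 and 0.041), and limma-voom called none.

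COX1 differed in direction from the other 12. It was at 4000, 3539 and 6089 CPM in late mutants, against 3649, 3448 and 2888 CPM in late wild type, with overlap (log2 fold change 0.45 ± 0.29, adjusted p = 0.32). Early it was at 3376, 4444 and 2369 CPM in mutants, against 6021, 4312 and 3473 CPM in wild type (log2 fold change -0.44 ± 0.29, adjusted p = 0.63). Its share of the mitochondrial counts was 20.2, 19.5 and 23.9% in late mutants, against 13.9, 10.3 and 10.2% in late wild type, without overlap. The same share was 15.3, 15.9 and 8.55% in early mutants, against 18.3, 19.98 and 14.5% in early wild type, with overlap.

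COX2 and COX3, the other core subunits of complex IV, had log2 fold changes above 0 early and below 0 late, and neither passed the threshold at either stage. COX2 was at 38.5, 59.8 and 64.7 CPM in late mutants, against 104, 68.7 and 66.2 CPM in late wild type, and at 84.0, 79.2 and 97.6 CPM in early mutants, against 64.1, 61.9 and 66.1 CPM in early wild type, without overlap at either stage. Its log2 fold changes were -0.55 ± 0.27 late and 0.44 ± 0.26 early (adjusted p = 0.18 and 0.61). The late value was -0.18 without late wild-type replicate 1, the highest of its group. COX3 was at 42.8, 50.2 and 65.6 CPM in late mutants, against 112, 81.2 and 82.9 CPM in late wild type, and at 86.1, 85.7 and 99.2 CPM in early mutants, against 69.1, 72.5 and 69.3 CPM in early wild type, without overlap at either stage. Its log2 fold changes were -0.80 ± 0.25 late and 0.36 ± 0.25 early (adjusted p = 0.062 and 0.64). ND4L was the most variable, at 0.928, 3.87 and 3.56 CPM in late mutants, against 12.9, 33.0 and 3.30 CPM in late wild type, and 7.08, 30.7 and 7.08 CPM in early mutants, against 2.66, 4.57 and 2.01 CPM in early wild type. Its log2 fold changes of -2.55 ± 0.84 late and 2.29 ± 0.84 early did not pass the threshold in edgeR with all libraries and the count filter. The late difference passed with DESeq2's Wald test (adjusted p = 0.0051), without late wild-type replicate 3 (0.039), without early mutant replicate 2 (0.047), with no filter (8.4e-08) and in 1 further setting, and the early one with no filter (5.2e-07). With no filter the log2 fold changes of ND4L were -2.48 late and 2.37 early, near those above. The cause of the smaller p was not tested. ATP6, ATP8 and ND3 had late log2 fold changes of -0.45, -1.03 and -0.35, and that of ND3 was 0.48 without late wild-type replicate 1.

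**Figure D5:**
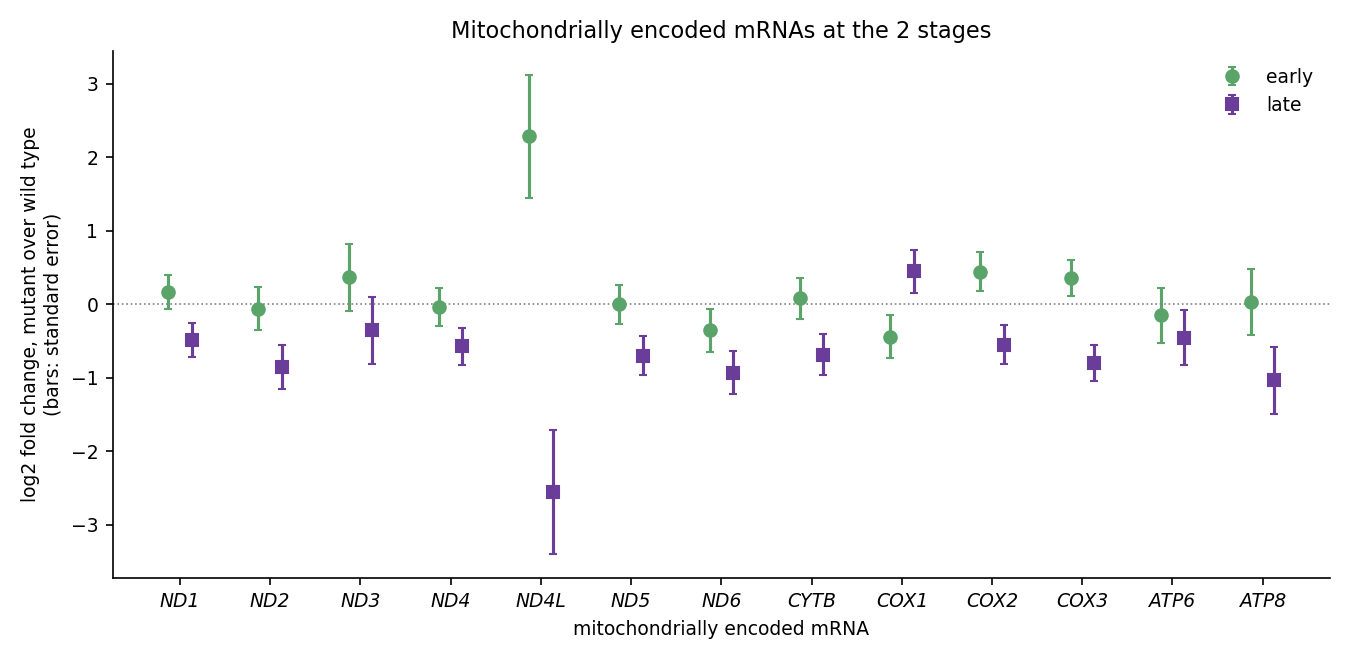
Log2 fold change of mutant over wild type for the 13 mitochondrially encoded mRNAs, early (green circles) and late (purple squares), with standard errors. COX1 is above 0 late and below 0 early, ND4L has the largest values and errors, and the other late values lie between -1.03 and -0.35.

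No member passed the threshold for a change of the genotype effect between the stages in edgeR's test, where 0.00557% of all genes did. DESeq2's Wald test called 3 members, and its share over all genes is not given here. In edgeR 14 members reached an unadjusted p under 0.05, where 11.2% of all genes did. The interaction, late effect minus early effect, was -1.97 ± 0.53 for Cox4i2 (adjusted p = 0.16), -1.83 ± 0.63 for Ndufa4l2 (adjusted p = 0.27) and -4.84 ± 1.19 for ND4L (adjusted p = 0.16). For COX3 it was -1.16, for COX2 -0.99, for Sdhc -0.90 and for Ndufa10, an accessory subunit of complex I, -0.95, and COX1 was the one of the 14 with a positive value, 0.89. Averaged over the stages 2 members were called, Ndufs5 lower and Cox6a2 higher, where 6.85% of all genes were called. The count was 34 without late wild-type replicate 1 and 12 without early wild-type replicate 2. The share of all genes called on the average in those fits is not given here, so these counts are not set against all genes. At the late stage, calls over all genes also rose without late wild-type replicate 1, from 5.47% to 9.33% lower and 11.0% higher. Late against early, no member was called within either genotype in edgeR, nor was any gene; DESeq2's Wald test and limma-voom each called 1 member in mutants and none in wild type. The median difference between stages was -0.31 over members in mutants and 0.17 in wild type, with 10 members lower at an unadjusted p under 0.05 in mutants, where 2.42% of all genes were, and 3 higher in wild type, where 1.93% were.

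The lists of genes that serve the chain held few calls. Late, 5.47% of all genes were called by edgeR, 13.1% by DESeq2's Wald test and 9.71% by limma-voom, and 28.1% reached an unadjusted p under 0.05 in either direction, 15.2% lower. Of 18 tested assembly factors of complex I, 15 were below 0 late with a median of -0.56, and 1, or 5.56%, was called. Timmdc1, which helps build the membrane arm, was at 8.39, 9.01 and 7.71 CPM in late mutants, against 9.21, 37.9 and 31.6 CPM in late wild type (log2 fold change -1.65 ± 0.41, adjusted p = 0.029). Its wild-type replicate 1 was near the mutants, and the call was lost without any 1 late mutant or late wild-type replicate 2 or 3 (adjusted p up to 0.12). Of 36 assembly factors of complexes II to V, 30 were below 0 with a median of -0.58, and none was called, with 13 at an unadjusted p under 0.05, 1 called by DESeq2's Wald test and 7 by limma-voom. The 14 supercomplex and cristae factors, which include Cox7a2l, itself one of the members, had a median of -0.48 with no call. Of them 5 were at an unadjusted p under 0.05, 1 was called by DESeq2's Wald test and 2 by limma-voom. The enzymes of the tricarboxylic acid cycle, which feed electrons to the chain, had a median of 0.29 over 18 genes, 12 of them above 0 and none called, with 8 at an unadjusted p under 0.05, 4 in each direction, 2 called by DESeq2's Wald test and 4 by limma-voom. Cytochrome c and the genes of coenzyme Q synthesis had a median of -0.01 over 14 genes with no call, 3 at an unadjusted p under 0.05, none called by DESeq2's Wald test and 1 by limma-voom. At the early stage no gene of these lists or of the next 2 was called in edgeR, DESeq2's Wald test or limma-voom, and 4 of them reached an unadjusted p under 0.05, where 8.77% of all genes did.

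Of 15 nuclear regulators of respiratory genes 10 were below 0 late, with a median of -0.34, and 2 were called, both lower in mutants, or 13.3%, where 5.47% of all genes were called. An unadjusted p under 0.05 was reached by 5 that were lower and 1 that was higher, and DESeq2's Wald test called 4 and limma-voom 3, all lower. Ppargc1a, the coactivator PGC-1alpha that drives mitochondrial biogenesis, was at 1.48, 3.36 and 2.53 CPM in late mutants, against 6.88, 7.14 and 6.80 CPM in late wild type (log2 fold change -1.50 ± 0.40, adjusted p = 0.035). Here wild-type replicate 1 was level with the other 2. Nrip1, a corepressor of the same nuclear receptors, was at 11.5, 14.4 and 15.0 CPM, against 39.7, 42.3 and 24.4 CPM (log2 fold change -1.38 ± 0.28, adjusted p = 0.0098). The call of Ppargc1a was lost without late mutant replicate 1 or 3, late wild-type replicate 2 or 3, early mutant replicate 2 or 3, or early wild-type replicate 2, in a fit of the late libraries alone and with no filter (adjusted p up to 0.13), and that of Nrip1 without late mutant replicate 1 or 3 (up to 0.061). Ppargc1b, its relative, was called on the average over stages (log2 fold change -0.83 ± 0.24, adjusted p = 0.042), and that call was lost without any 1 of 9 of the 12 libraries, with no filter and in 1 further setting (adjusted p up to 0.13). Nrip1 was called on the average too (log2 fold change -0.77 ± 0.20, adjusted p = 0.023), lost without any 1 of 8 libraries (up to 0.083). The factors whose motifs were searched, named after their values were seen, had late log2 fold changes of 0.15 ± 0.30 for Nrf1, -0.34 ± 0.39 for Gabpa, 0.37 ± 0.66 for Esrra and -0.55 ± 0.36 for Yy1, with adjusted p from 0.33 to 0.77.

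Of 21 genes that transcribe and maintain mitochondrial DNA, 1 was called late, or 4.76% where 5.47% of all genes were, and 3 on the average, or 14.3% where 6.85% of all genes were, all higher in mutants. Late, DESeq2's Wald test called 2 higher and 1 lower, and limma-voom 1 higher and 1 lower. Prorp, the nuclease subunit of mitochondrial RNase P, was at 16.9, 11.9 and 16.7 CPM in late mutants, against 6.56, 7.18 and 5.56 CPM in late wild type, and at 14.6, 20.6 and 10.9 CPM in early mutants, against 6.81, 8.04 and 8.45 CPM in early wild type. The groups did not overlap at either stage, and the average log2 fold change was 1.11 ± 0.21 (adjusted p = 0.0038), a call kept in all 20 alternatives. Its late value alone was 1.24 ± 0.30 (adjusted p = 0.026), lost without late mutant replicate 1 or 3 or late wild-type replicate 2 or 3, or in a fit of the late libraries alone (up to 0.093). Pnpt1, an RNA-degrading enzyme of mitochondria, and Tfb2m, a factor that starts transcription of mitochondrial DNA, averaged 1.08 ± 0.28 and 0.90 ± 0.24 (adjusted p = 0.026 and 0.027). The call of Pnpt1 was lost without early mutant replicate 3, early wild-type replicate 1, late mutant replicate 1 or late wild-type replicate 3 (up to 0.089). That of Tfb2m was lost without early mutant replicate 1 or 3, early wild-type replicate 1, late mutant replicate 1 or 3, or late wild-type replicate 2 or 3 (up to 0.077). Tfam, the packaging protein of mitochondrial DNA, had a late log2 fold change of 0.22 ± 0.28 (adjusted p = 0.63).

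Markers of other cells differed between the genotypes beside these results. The 15 macrophage and myeloid markers summed to 470 to 574 CPM in late mutants and 48.4 to 76.2 CPM in late wild type, with 12 called higher, and to 297 to 656 CPM in early mutants and 43.1 to 72.4 CPM in early wild type, with 8 called higher. The 12 photoreceptor markers summed to 113 to 344 CPM in late mutants and 83.6 to 133 CPM in late wild type, and to 196 to 395 CPM in early mutants and 39.7 to 80.0 CPM in early wild type. Photoreceptor markers had 3 called higher early and none late. At an unadjusted p under 0.05 all 12 were higher early, where 5.37% of all genes were, and 7 were higher late. The 10 melanocyte and pigment epithelium markers summed to 99.1 to 241 CPM in early mutants and 40.8 to 55.1 CPM in early wild type. None of these 10 was called at either stage, 7 were higher early at an unadjusted p under 0.05, and the late sums overlapped. Of the 10 keratocyte markers 4 were called higher late, among them the proteoglycans Kera and Lum (log2 fold change 2.35 and 2.15), and 1 lower, Ptgds (-1.37), and 2 were called higher early. They summed to 21360 to 32700 CPM in late mutants and 21060 to 26440 CPM in late wild type. Of the 6 trabecular meshwork markers 3 were called higher late, among them Chil1 and Mgp (log2 fold change 2.83 and 2.29), and 2 early, with late sums of 642 to 909.8 CPM in mutants and 636 to 963 CPM in wild type. Of the 9 tested lens markers 2 were called higher late, Cryaa and Cryba1 (log2 fold change 2.01 and 1.92), and none early, with late sums of 239.6 to 353 CPM in mutants and 97.7 to 162 CPM in wild type. The lens list did not move one way. Its late median was 0.02, with 5 above 0 and 3 below, 2 of these at an unadjusted p under 0.05. Early all 9 were below 0 with a median of -1.14, 3 of them at an unadjusted p under 0.05, where 3.4% of all genes were. Crygs was called lower on the average over stages (log2 fold change -1.21, adjusted p = 0.027).

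The 12 endothelial markers did not move one way at the late stage. They summed to 10630 to 13300 CPM in late mutants and 7306 to 14280 CPM in late wild type, with wild-type replicate 1 the highest, and their median log2 fold change was -0.20. Atp1b1, Cdh2, Tjp1, Alcam and Prdx6, 41.7% of the 12, lay below wild type without overlap, where 10.9% of all genes did, each at an unadjusted p under 0.05. Of these 5, Atp1b1 was called, a gene for the beta chain of the sodium pump, at 766, 756 and 697 CPM in late mutants, against 993, 1843 and 1516 CPM in late wild type (log2 fold change -0.97 ± 0.26, adjusted p = 0.035). Car2, a carbonic anhydrase, lay above wild type without overlap and did not pass the threshold (log2 fold change 1.18, adjusted p = 0.051). The part of cell makeup in the late difference of the members was not tested.

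The authors' deposited table of the early comparison lists 102 members, of which 5 have a q under 0.05, where 1.87% of its genes do. In the authors' deposited table these are Cox6a2, Cox8b, Cox4i2 and ND4L, higher in mutants, and Ndufs5, lower, at a log2 fold change of -0.86 (q = 0.011). The authors' deposited table of the late comparison lists 101 members, of which 8 have a q under 0.05, where 7.59% of its genes do. In the authors' deposited table all 8 are lower in mutants, namely Ndufs5 (log2 fold change -1.19, q = 0.0064), Atp5k (-1.01, q = 0.0091), Ndufa11, Ndufb2, Uqcr10, ND2, ND4L and ND6.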

How the data were processed

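Poly(A) RNA of corneal endothelium was sequenced in paired ends from a directional library, per the labels' protocols. Per the submitters' processing notes, fastp, HISAT2, HTSeq and DESeq2 and the build GRCm39 were used. Neither strand setting nor annotation is given in the sources used. The authors deposited raw counts per gene, FPKM per gene, and per stage a table of comparisons with a DESeq2 mean (a signal after size factors), a fold (ratio), its log2 and p-values with q-values, per the file headers.

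Counts were tested with edgeR 4.0.16 (quasi-likelihood, robust, TMM scaling, filterByExpr) in R 4.3.3 on all 12 libraries in 4 groups with 8 residual degrees of freedom. P-values were adjusted by Benjamini-Hochberg over all 17965 genes, with a threshold of 0.05. The p-values measure the spread between the submitted replicates. FPKM served only to compare levels between genes. DESeq2 1.42.0 and limma 3.58.1 served as alternatives, with other filters, scalings, features and each library left out. The procedure was tested on simulated data. Copies were sought among GENCODE vM21 transcripts.

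Total counts per library ranged from 19722598 to 39431676, and a floor of 3 counts was used where a group had none. Members, lists and markers were chosen with earlier results of these data known. Members named are those past the threshold, the 8 with the smallest p in each contrast, all 13 mitochondrial mRNAs, isoform pairs, and the highest and lowest by FPKM in each complex; list genes are those past the threshold.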

Additional observations from a re-analysis of the deposited data

How the results depend on the processing

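The late medians kept their sign under every alternative, and over the fits that each left out 1 library they lay between -0.76 and -0.48 for nuclear and between -0.72 and -0.55 for mitochondrial members. The early medians changed sign, between -0.16 and 0.08 for nuclear and between -0.11 and 0.21 for mitochondrial members. Counts of calls moved more. Late, DESeq2's Wald test called 13.1% and limma-voom 9.71% of all genes, and edgeR without late wild-type replicate 1 called 9.33% lower and 11.0% higher. For the other settings the share of all genes called is not given here. Their counts therefore do not show whether members were called more often than other genes. Early, they were 0 with DESeq2 size factors, with limma-voom, with protein-coding genes alone and with the stricter filter (5 CPM in 3 libraries), 3 in a fit of the early libraries alone, 5 with no filter and 0 to 1 with 1 library left out. Late, they were 20 with DESeq2's Wald test, 32 with limma-voom, 7 with protein-coding genes alone, 0 in a fit of the late libraries alone and 0 to 50 with 1 library left out. On the average over stages they were 16 with DESeq2's Wald test, 25 with limma-voom, 7 with no filter, 10 with protein-coding genes alone, 15 with the stricter filter and 2 to 34 with 1 library left out. For the interaction they were 3 with DESeq2's Wald test, 5 with no filter and 0 with any library left out. For late against early they were 1 in mutants with each of DESeq2's Wald test, limma-voom and no filter, 2 in wild type with no filter, and 0 with any library left out. The cause of these differences was not tested. Replicate numbers were checked for pairing: deviations of same-numbered libraries correlated at r from -0.09 to 0.08, and the libraries were treated as unpaired. With the replicate block the counts were 1 early, 2 late, 3 on the average and 0 for the interaction and both stage comparisons; the late call of Atp5k (adjusted p = 0.054) and the average call of Ppargc1b were lost, and ND4L passed late (0.037). ND3 was above 0 late with limma-voom (0.13), and with 1 library left out it ranged from -0.61 (without late wild-type replicate 2) to 0.48 (without late wild-type replicate 1). The mitochondrial share of protein-coding counts was 2.95% in late wild type and 2.78% in early wild type. The motif AAGATGGCG lay in 1.32% of member windows, against 0.61% of all windows, when the 50 bases after the start were left out. Among single members 776 values kept their direction and side of the threshold, 78 passed it under an alternative alone, 28 lost it and 2 changed sign. Depth limits Cox6a2, with 99 counts at the most in an early library, and Cox7b2 and Cox8c, which did not pass the count filter.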
